A study of Drosophila melanogaster with 3 samples.

Results

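The proteasome subunit genes are the 48 protein-coding genes of Drosophila melanogaster whose symbols begin with Rpn, Rpt, Prosalpha or Prosbeta followed by a number, of 13945 protein-coding genes annotated on the 6 major arms. They were taken from the Ensembl release 115 annotation by symbol alone, though the symbol rule was chosen with earlier results of these data known. They divide into 32 genes of the core subunits and 16 paralogues whose symbols carry an R or a T after the subunit number, such as Rpn12R and Prosalpha3T. The study mapped where Gooseberry-neuro (gsb-n), a Pax transcription factor that binds DNA through its paired domain and homeodomain, was recovered on chromatin of whole embryos. The embryos, 4 to 14 hours old by the source description, came from a transgenic line that stably expressed gsb-n with green fluorescent protein at its C terminus. An antibody to the fluorescent tag was used for precipitation. There were 3 biological replicates of this 1 group. The control that entered peak calling was shared and is not among the samples analysed here. All cells of the embryo contributed to the chromatin, and the sources used here do not give what drives the fusion gene.

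The proteasome degrades proteins that carry ubiquitin chains. Its core particle is a barrel in which rings of beta subunits, some of them proteases, lie between rings of alpha subunits that form the gates. The regulatory particle caps the barrel. Its base holds a ring of ATPases (Rpt subunits) that unfold substrates, with non-ATPase subunits that bind ubiquitin or its carriers, and its lid removes the ubiquitin. Subunits assemble in fixed ratio, and their genes are expressed in nearly all cells. Several of the R and T paralogues are known as testis-specific forms in the fly.

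The values are the peaks that the authors deposited on the dm6 genome. Each replicate has a list of 30000 peaks, and a further 30000 peaks, the pooled list, were called on all 3 replicates with the shared control. A list of 5746 peaks, called the IDR list below after the irreproducible discovery rate, holds the 5746 pooled peaks with the highest signal. Signal is the authors' peak height and is comparable only within a list, so peaks are given by rank, where rank 1 is the strongest. A summit is the position of a peak's maximum. A promoter summit is at most 500 bp from any annotated transcription start site (TSS) of the gene, and an assigned summit has that gene's TSS as the nearest of all protein-coding TSSs. Read depth is unknown, and with 1 group there was no comparison between conditions and no test, so every value below is a description.

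The promoter sequences that the results turn on are given first, on the strand of the gene and ending at the base before its 5′-most TSS, from the RefSeq copy of genome release 6 (dm6). Each stops where an annotated exon begins, so several are short. Rpn3 (chr2L:19051613-19051789, plus strand), Rpn11 (chr2L:5059791-5060040, minus strand) and Rpn5 (chr3R:5789385-5789492, plus strand) are shown because these lid genes had IDR promoter summits.

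Rpn3: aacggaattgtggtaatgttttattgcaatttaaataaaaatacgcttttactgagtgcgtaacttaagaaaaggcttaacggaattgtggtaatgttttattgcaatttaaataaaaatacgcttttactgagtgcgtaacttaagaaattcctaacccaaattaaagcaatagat
Rpn11: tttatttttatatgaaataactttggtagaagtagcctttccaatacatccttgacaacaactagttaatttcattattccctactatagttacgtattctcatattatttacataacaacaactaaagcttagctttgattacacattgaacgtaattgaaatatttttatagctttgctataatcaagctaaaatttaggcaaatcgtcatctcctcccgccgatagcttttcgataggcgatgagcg
Rpn5: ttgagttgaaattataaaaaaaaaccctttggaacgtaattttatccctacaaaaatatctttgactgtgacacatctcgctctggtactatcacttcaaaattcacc

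Prosbeta2 (chr3L:14999701-14999950, plus strand) and Prosalpha6 (chr2L:10221217-10221350, plus strand) are shown because they had promoter summits in every replicate and none in the pooled list. Capitals mark the core of the DNA replication-related element (DRE), TATCGATA, the motif of the factor DREF.

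Prosbeta2: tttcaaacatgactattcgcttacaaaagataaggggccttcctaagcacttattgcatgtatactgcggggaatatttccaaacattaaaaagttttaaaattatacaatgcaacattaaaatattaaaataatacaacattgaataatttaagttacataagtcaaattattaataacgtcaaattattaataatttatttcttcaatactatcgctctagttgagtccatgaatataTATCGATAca
Prosalpha6: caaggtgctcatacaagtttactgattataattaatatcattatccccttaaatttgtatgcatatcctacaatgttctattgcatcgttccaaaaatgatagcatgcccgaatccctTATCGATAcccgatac

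Rpt3 (chrX:11124851-11125100, plus strand), a core gene, and Prosbeta5R2 (chr2L:17990168-17990417, plus strand), a paralogue, are shown because neither had a promoter summit in any list. Capitals in Rpt3 mark CAGCTG, an E-box.

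Rpt3: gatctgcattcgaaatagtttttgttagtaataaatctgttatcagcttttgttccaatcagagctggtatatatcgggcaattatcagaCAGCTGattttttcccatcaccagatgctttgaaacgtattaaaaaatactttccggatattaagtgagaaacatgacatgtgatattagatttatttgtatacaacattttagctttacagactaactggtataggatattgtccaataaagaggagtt
Prosbeta5R2: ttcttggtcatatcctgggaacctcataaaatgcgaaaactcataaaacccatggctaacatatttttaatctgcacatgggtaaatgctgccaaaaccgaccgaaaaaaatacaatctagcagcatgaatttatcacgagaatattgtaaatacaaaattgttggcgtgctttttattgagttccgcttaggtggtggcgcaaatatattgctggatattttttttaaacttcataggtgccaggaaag

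Promoter summits were found at most core subunit genes and at none of their paralogues. In the full replicate lists, 20, 18 and 23 of the 32 core genes had a promoter summit in replicates 1, 2 and 3 (62.5%, 56.2% and 71.9%, or 63.5% ± 7.86, SD, n = 3). Over all protein-coding genes the shares were 39.3%, 39.3% and 46.5%. None of the 16 paralogues had a promoter summit in any of the 5 lists. Every replicate thus gave the core genes a higher share than all genes, and the paralogues a share of 0. The shares of the 48 genes with a promoter summit were 41.7%, 37.5% and 47.9% in replicates 1, 2 and 3. These were near the 39.3%, 39.3% and 46.5% of all protein-coding genes, and below them in replicate 2. By assignment, 18, 19 and 24 of the 48 genes had a summit (20.3 ± 3.21, SD, n = 3), against 48.8%, 47.6% and 54.2% of all genes. Across the replicates, 26 of the 32 core genes (81.2%) had a promoter summit in at least 1 replicate, against 54.7% of all protein-coding genes. In all 3 replicates 15 (46.9%) had one, against 29.7%. For all 48 genes these shares were 54.2% and 31.2%, near those of all protein-coding genes. The lists have a fixed length and the counts were not limited by q value, so they include weak peaks. The deposited −log10 q in replicates 1, 2 and 3 was 0.72, 0.41 and 0.96 at Rpn12, but 4.00, 4.04 and 3.44 at Rpn3. At Prosalpha2, with a summit in replicate 3 alone, it was 0.36.

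Among the strongest peaks, the core genes stood near the background. In the IDR list, 7 of the 32 core genes (21.9%) had a promoter summit, against 17.7% of all protein-coding genes, and with the paralogues this was 7 of 48 (14.6%). Counted by assignment, 4 of the 48 genes (8.33%) had an IDR summit, namely Rpn3, Rpn6, Rpn11 and Rpn13, against 22.1% of all genes. The pooled list gave 14 core genes a promoter summit (43.8%, against 36.8% of all genes) and 13 of the 48 genes an assigned one (27.1%, against 45.1%). Assignment gives more weight to genes with a long stretch of genome nearest to their TSS. That stretch had a median of 1.69 kb for core genes and 3.99 kb for paralogues, against 4.25 kb for all genes.

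When each replicate list was limited to its 5746 strongest peaks, 8, 8 and 10 core genes had a promoter summit in replicates 1, 2 and 3 (27.1% ± 3.61, SD, n = 3). The shares over all genes were 18.5%, 17.9% and 21.7%. By assignment there were 5, 5 and 9 of the 48 genes (6.33 ± 2.31, SD, n = 3), against 22.8%, 22.2% and 23.9% of all genes. Rpn3, Rpn6, Rpn8 and Rpn13 were the 4 core genes in these stronger parts in all 3 replicates (12.5%, against 12.6% of all genes). The promoter summits of core genes had median ranks of 5980, 6764 and 5845 in replicates 1, 2 and 3, close to the 6248, 6600 and 6292 of all genes with a promoter summit. A single core gene, Rpn6 in replicate 3, was among the top 1000 peaks of any list, where 10.2% to 12.3% of all genes with a promoter summit in a replicate were found.

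**Figure D1:**
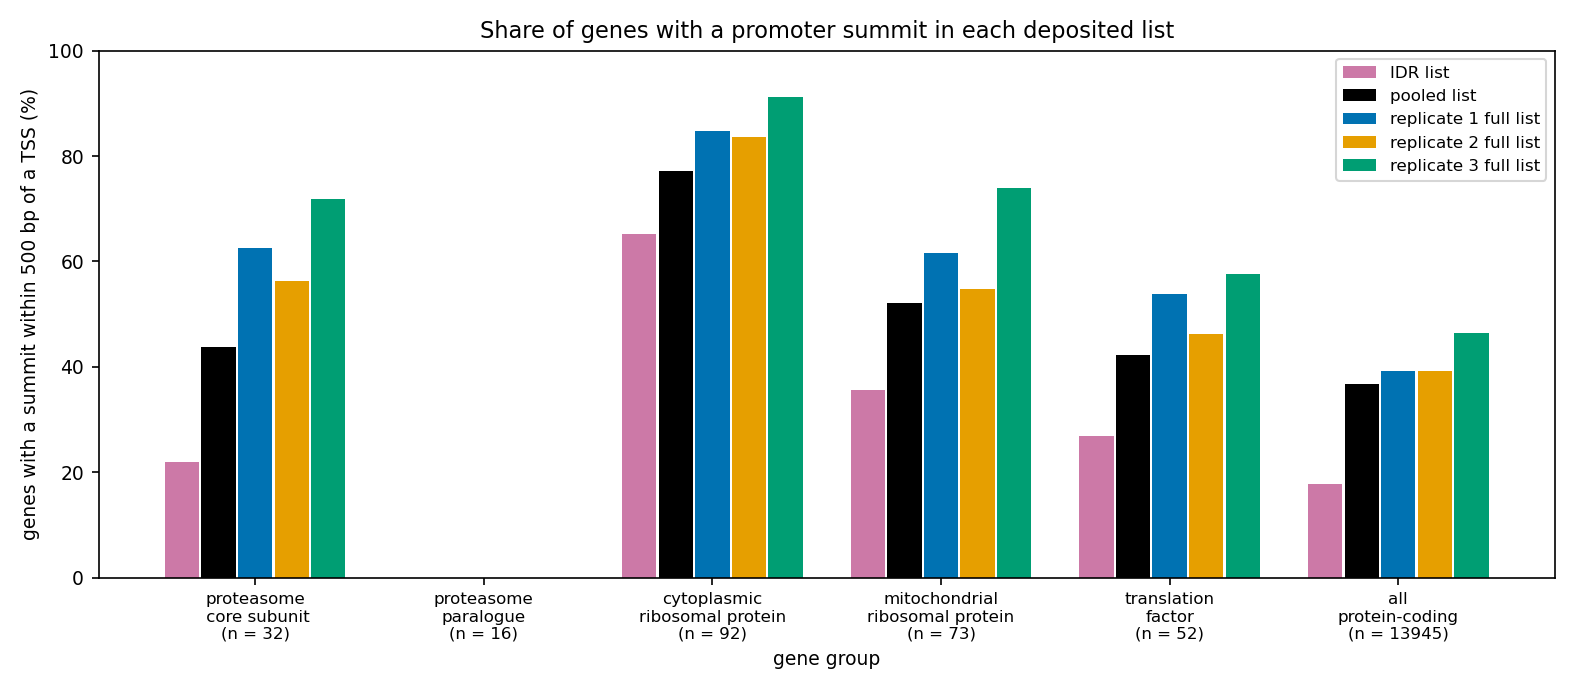
Bars give the share of genes (%) with a peak summit within 500 bp of a TSS in each of the 5 deposited lists, for 6 gene groups. The core proteasome genes reach 62.5%, 56.2% and 71.9% in the replicates and 21.9% in the IDR list, the 16 paralogues are at 0 throughout, and all protein-coding genes are at 39.3%, 39.3%, 46.5% and 17.7%.

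Genes of the translation machinery, also expressed in nearly all cells, were set beside them. In the IDR list a promoter summit was found at 65.2% of 92 cytoplasmic ribosomal protein genes, at 35.6% of 73 mitochondrial ribosomal protein genes and at 26.9% of 52 translation factor genes, against which the 21.9% of the proteasome core genes was the lowest of the 4 groups. In the full replicate lists the proteasome core genes (63.5% ± 7.86) had the same mean share as the mitochondrial ribosomal protein genes (63.5% ± 9.72), and the cytoplasmic ribosomal protein genes had 86.6% ± 4.12 (SD, n = 3 each). The ribosomal protein genes also ranked higher, with median ranks of 2522, 1913 and 2328 in the replicates, against 5980, 6764 and 5845 for the proteasome core genes.

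Of the 7 core genes with an IDR promoter summit, 5 were lid genes. All 8 core lid genes had a promoter summit in at least 2 replicates, and 6 (75%) had one in all 3, against 29.7% of all genes. In the IDR list 5 of the 8 had one (62.5%, against 17.7% of all genes), namely Rpn3, Rpn5, Rpn6, Rpn9 and Rpn11. The other 24 core genes had 2 IDR promoter summits among them, at Rpn13 and Prosbeta5. In the 5746 strongest peaks of replicates 1, 2 and 3, lid genes were 5 of 8, 5 of 8 and 5 of 10 core genes with a promoter summit. The subcomplexes are small, and the lid was singled out after its values were seen.

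Rpn3, a scaffold subunit of the lid, had the strongest pooled peak of the 48 genes, at rank 1771 with a signal of 336.8, where the IDR list has a median signal of 250.3. Its summit lay 4 bp downstream of the TSS (chr2L:19051586-19052001). The ranks were 1622, 1680 and 4179 in replicates 1, 2 and 3, with summits at −48, −9 and +46 bp. All 3 replicates thus placed it within 50 bp of the TSS, and replicate 3 ranked it lowest. The reference sequence of this promoter, printed above, holds an exact direct repeat: its bases 1 to 72 recur at bases 79 to 150. The repeat runs up to 28 bases from the TSS, and the sources used here do not say how the authors' alignment treated reads from the copies.

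Rpn6, the lid subunit that also touches the alpha ring, followed at pooled rank 2069 (signal 307.0). Its ranks were 4181, 3366 and 739 in replicates 1, 2 and 3. The summits were at −112, −111 and −114 bp, the tightest placement of any of the 15 core genes with summits in all replicates, whose other ranges ran to 305 bp. This summit belongs to the second TSS of Rpn6, 639 bp downstream of the first, and lies in an intron of the longer transcript.

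Rpn11, the deubiquitinase of the lid, had an intergenic summit 275 bp upstream of its TSS (chr2L:5059857-5060272, pooled rank 3016, signal 243.5). It ranked 2184, 6757 and 3096 in replicates 1, 2 and 3, at −277, −223 and −190 bp. Its summit was the farthest from the TSS among the IDR promoter summits of the core genes, just beyond the printed sequence, which the peak overlaps.

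Rpn5 and Rpn9 encode scaffold subunits of the lid. The Rpn5 peak (pooled rank 3009, signal 243.8) had its summit 147 bp upstream, inside the 5′ UTR of Hat1, a histone acetyltransferase gene whose TSS was 38 bp away. Replicates 1 and 2 ranked it 2114 and 5632, and replicate 3 had no summit within 500 bp of Rpn5. The Rpn9 peak (pooled rank 2929, signal 247.6) lay 195 bp downstream of the Rpn9 TSS, in its 5′ UTR. It ranked 5941, 2094 and 3363 in replicates 1, 2 and 3, at +197, +196 and +165 bp. Both peaks had the TSS of another gene as the nearest and drop out of the count by assignment.

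The remaining lid genes were Rpn7, Rpn8 and Rpn12. Rpn7 had a promoter summit at pooled rank 14530, with ranks 10582 and 20327 in replicates 1 and 2 and none in replicate 3. Rpn8, the partner of Rpn11, had ranks 3561, 4678 and 4169, at its second TSS, which lies 2977 bp downstream of the first. In replicates 1 and 2 these summits were nearer to the TSS of an opposite-strand neighbour, at 92 and 15 bp. Rpn12 had ranks 17040, 22579 and 12854. Neither Rpn8 nor Rpn12 had a promoter summit in the pooled list, which is taken up below.

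**Figure D2:**
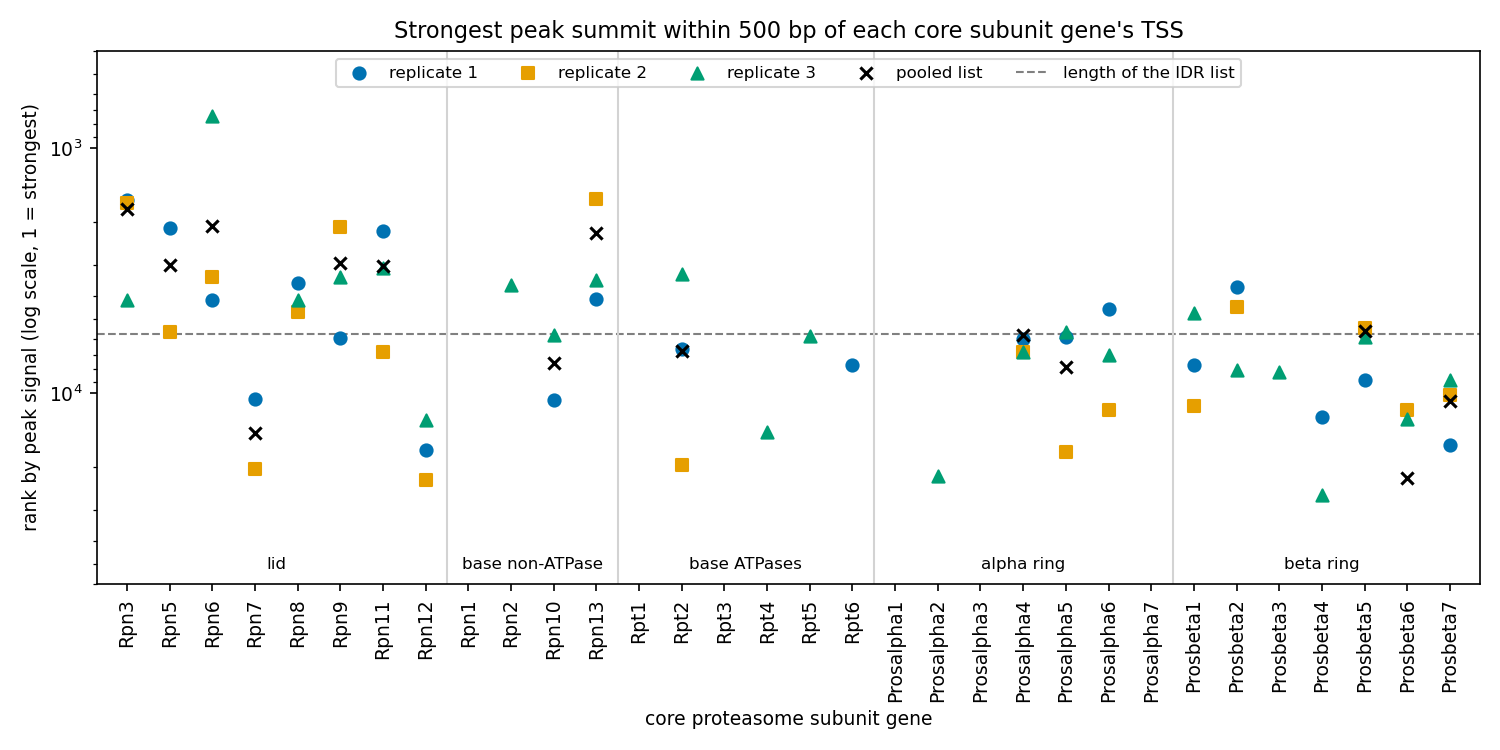
Each point is the rank by signal (log scale, strongest at the top) of the strongest summit within 500 bp of a core gene's TSS, in each replicate and in the pooled list, with genes grouped by subcomplex and the dashed line at rank 5746. The lid genes have points in at least 2 replicates and most of the points above the line, 6 genes have no point at all, and the 3 replicates of 1 gene often differ widely, as for Rpt2 at 6616, 19582 and 3269.

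In the base, Rpn13 was the 1 gene with an IDR promoter summit. Rpn13, a ubiquitin receptor, had its summit 71 bp upstream of the TSS, at pooled rank 2209 (signal 295.1). Its ranks were 4130, 1616 and 3436 in replicates 1, 2 and 3, with summits at −72, −106 and −82 bp, so the replicates placed it within 34 bp. Rpn10, the other dedicated ubiquitin receptor, had pooled rank 7541 and ranks 10685 and 5781 in replicates 1 and 3, with no promoter summit in replicate 2. Rpn2 had a promoter summit in replicate 3 alone, at rank 3621, and Rpn1 had none in any list.

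Of the 6 genes of the base ATPases, 4 (66.7%) had a promoter summit in at least 1 replicate, against 54.7% of all genes, and 1 (16.7%) had one in all 3, against 29.7%. Rpt2 was the gene with summits in all 3 replicates, at ranks 6616, 19582 and 3269, and it had pooled rank 6720. Rpt4 (rank 14450) and Rpt5 (rank 5845) had one in replicate 3 alone, and Rpt6 (rank 7653) had one in replicate 1 alone. Rpt1 and Rpt3 had none in any list. No ATPase gene had an IDR promoter summit, against 17.7% of all genes, and with 6 genes such a count is near the background.

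In the core particle, all 7 beta ring genes and 4 of the 7 alpha ring genes (57.1%) had a promoter summit in at least 1 replicate, against 54.7% of all genes. In all 3 replicates it was 4 beta ring genes (57.1%) and 3 alpha ring genes (42.9%), against 29.7% of all genes, so the alpha ring counts were near or above the background. Prosbeta5, the subunit with chymotrypsin-like activity, had the 1 IDR promoter summit of the core particle, near the end of that list, at rank 5564 with a signal of 161.8, where the lowest signal in the list is 158.2. Its ranks were 8792, 5429 and 5891 in replicates 1, 2 and 3, at −117, −42 and −52 bp. The pooled summit was 52 bp from the Prosbeta5 TSS and 42 bp from that of dgo, the planar cell polarity gene diego, on the opposite strand.

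Prosalpha4 stood just outside the IDR list, at pooled rank 5774 with a signal of 157.7. Its ranks were 6019, 6770 and 6759 in replicates 1, 2 and 3, with summits at −160, −91 and −189 bp, in the start region it shares with kat80, a katanin subunit gene. These were closer to each other in rank than those of any other of the 15 core genes with summits in all replicates. Prosalpha5 had pooled rank 7785, with ranks 5885, 17340 and 5614. Prosbeta7 had pooled rank 10754 and ranks 16311, 10212 and 8828. Prosbeta6 had pooled rank 22170 and no promoter summit in replicate 1. The alpha ring genes with none in any list were Prosalpha1, Prosalpha3 and Prosalpha7.

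The summits at core genes lay mostly upstream. Taking the strongest promoter summit of each core gene, 18 of 20 were upstream of the nearest TSS in replicate 1, 17 of 18 in replicate 2 and 19 of 23 in replicate 3, at median distances of 121, 98.5 and 82 bp from the TSS. Core genes often start beside another gene. A head-to-head neighbour, here an opposite-strand TSS within 500 bp upstream of any TSS of the gene, was present at 21 of the 32 core genes (65.6%) and at 3 of the 16 paralogues (18.8%), against 27.4% of all genes. Of the 21 core genes with such a neighbour 18 had a promoter summit in at least 1 replicate, and of the 11 without one 8 did, against 54.7% of all genes. In the IDR list these counts were 6 of 21 and 1 of 11, against 17.7% of all genes. The same split over all genes was not computed. At such promoters a summit cannot be given to 1 gene, and 7 of the 20, 7 of the 18 and 7 of the 23 strongest promoter summits in replicates 1, 2 and 3 were nearer to the TSS of a neighbour.

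**Figure D3:**
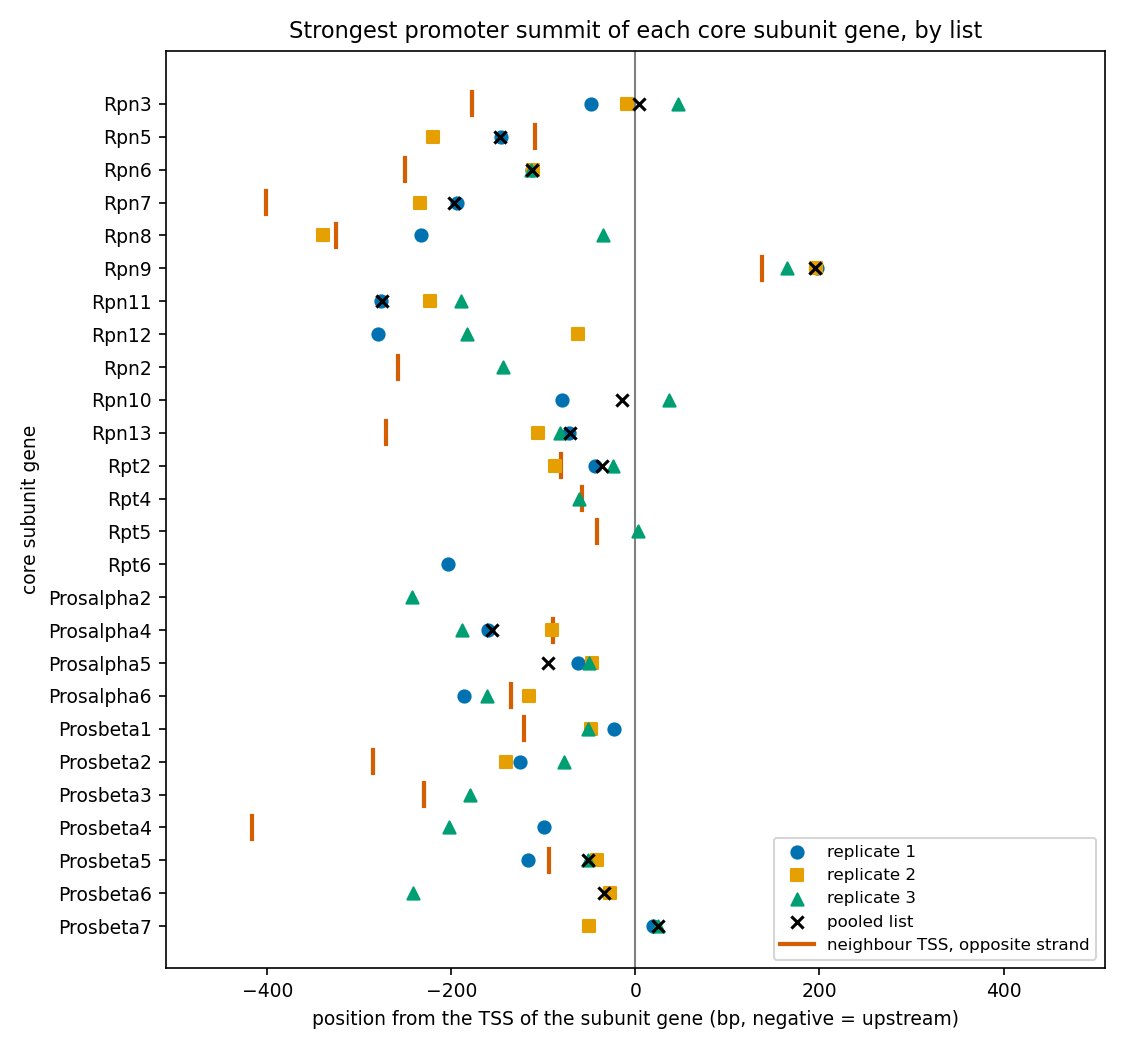
Each row is 1 of the 26 core genes with a promoter summit in a replicate, and the horizontal axis is the position of the strongest summit of each list from a TSS of that gene in bp, with negative values upstream. Orange bars mark the TSS of a head-to-head neighbour. Most points lie upstream of the TSS, the Rpn6 points coincide at −112, −111 and −114 bp, and Rpn9 has all its points downstream.

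The pooled list lacked promoter summits at core genes that every replicate had. Of the 15 core genes with a promoter summit in all 3 replicates, 5 had none in the pooled list (33.3%), namely Prosalpha6, Prosbeta1, Prosbeta2, Rpn8 and Rpn12, which were singled out after their values were seen. Over all protein-coding genes this was the case for 177 of 4147 (4.27%). It was 3 of 70 cytoplasmic ribosomal protein genes (4.29%), 2 of 38 mitochondrial ribosomal protein genes (5.26%) and 2 of 23 translation factor genes (8.70%). Among the genes that work with the proteasome, described further below, it was 2 of 13 (15.4%). As a share of whole groups, it was 5 of the 48 proteasome genes (10.4%), against 1.27% of all protein-coding genes.

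These 5 genes were not all weak. Rpn8 had ranks 3561, 4678 and 4169 and signals of 82.4, 79.2 and 51.6 in replicates 1, 2 and 3, so it was above rank 5746 in each. Its summits lay at −233, −340 and −35 bp, the widest spread of the 15 genes. Those of replicates 1 and 2 were nearer to the TSS of its head-to-head neighbour. Prosbeta2, the subunit with trypsin-like activity, had ranks 3684, 4466 and 8062, with summits at −125, −141 and −78 bp. Prosalpha6 had ranks 4530, 11696 and 6978, with summits at −186, −116 and −161 bp. All of these Prosalpha6 summits were nearer to the TSS of its head-to-head neighbour, at 51, 19 and 26 bp. Prosbeta1, the subunit with caspase-like activity, had ranks 7684, 11258 and 4706, with summits at −23, −48 and −52 bp.

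Pooled summits were also lacking around these genes. The nearest pooled summit was 36473 bp from Rpn8, 17008 bp from Prosalpha6, 14509 bp from Prosbeta1, 6777 bp from Prosbeta2 and 4091 bp from Rpn12. The stretch without a pooled summit around Rpn8 was 175886 bp long, and it held 6, 10 and 9 summits of replicates 1, 2 and 3. Around its first TSS, neighbouring summits stood 13533, 15327 and 13693 bp apart in the replicate lists. Long gaps occur in every list: 291 gaps of at least 50 kb lie between neighbouring pooled summits, against 271, 286 and 242 in replicates 1, 2 and 3, and 21 pooled gaps are as long as that at Rpn8. The median gap was 1296 bp in the pooled list.

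The counts were similar at other distances. With a promoter summit defined by 250 bp, 4 of 13 core genes with summits in all replicates had none in the pooled list, against 5.03% of all such genes, and with 1000 bp it was 5 of 16, against 3.70%. Since the IDR list is drawn from the pooled list, none of the 5 genes could enter it. The cause of the missing pooled peaks was not tested.

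The paralogues were far from peaks. The median distance from a TSS to the nearest pooled summit was 10016 bp for the 16 paralogues and 2840 bp for the core genes, against 2038 bp for all genes. In replicates 1, 2 and 3 the paralogues had medians of 4398, 6266 and 3726 bp, and the core genes of 190, 210 and 163 bp, against 1478, 1502 and 725 bp for all genes. Beyond 500 bp, assigned summits were found at 4, 3 and 5 paralogues in replicates 1, 2 and 3 and at Rpn12R and Rpn13R in the pooled list.

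The strongest of these distal summits was assigned to Rpn13R, at pooled rank 6645 (signal 143.5), 12014 bp from its TSS. It lay in an intron shared by CG15465 and rg, on chromosome X, and ranked 6274 and 6083 in replicates 1 and 2 and 23801 in replicate 3. Rpn13R has 39.8 kb of genome nearest to its TSS, and the assignment to it rests on distance alone. The Rpn12R summit, in an intron of Sytbeta 3402 bp away, was weak in every list, at pooled rank 21247.

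Motifs were searched in a window of 250 bases before to 50 after the 5′-most TSS, on either strand, and 7 of the 10 motifs were found in both core and paralogue promoters. The DRE core, TATCGATA, matched 12 of the 32 core promoters (37.5%) and 0 of the 16 paralogue promoters, against 9.36% of all protein-coding promoters. It was found at 8 of the 15 core genes with promoter summits in all 3 replicates, at 3 of the 11 with them in 1 or 2, and at 1 of the 6 with none. Over all genes, 12.8% of those with promoter summits in all 3 replicates and 5.57% of those with none had the match. In the sequences printed above its last base is at −3 from the Prosbeta2 TSS and at −9 from that of Prosalpha6. Over the 12 core promoters the matches were spread from base −217 at Rpn13 to base 33 at Rpn9. DREF is known for binding promoters of replication and housekeeping genes. Where the summits belong to a second TSS, as at Rpn6 and Rpn8, this window does not cover them.

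The M1BP element matched 4 of the 32 core promoters (12.5%) and none of the 16 paralogue promoters, against 4.50% of all promoters. Ohler motif 6 matched 2 core (6.25%) and 2 paralogue promoters (12.5%), against 2.23%. Both are motifs of broadly active promoters. The E-box CAGCTG was found at 1 core promoter, Rpt3, which had no summit, and at 1 paralogue promoter, Rpt3R, against 17.7% of all promoters. GAGAG matched 3 core (9.38%) and 6 paralogue promoters (37.5%), against 29.7%.

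For the DNA-binding domains of gsb-n, 3 core motifs were searched. The homeodomain core TAATTA matched 3 core (9.38%) and 2 paralogue promoters (12.5%), against 20.4% of all promoters. For the paired domain, GTCACG followed by C or G matched 1 core and 0 paralogue promoters, against 2.80%, and GTTCC followed by C or G matched 4 core (12.5%) and 3 paralogue promoters (18.8%), against 14.9%. The first shares the letters GTCAC with the M1BP element, but the letter after them differs. TATAAA matched 13 core (40.6%) and 5 paralogue promoters (31.2%), against 45.8%. The antioxidant response element TGANNNNGC, the kind of site used by the factor that drives proteasome genes, matched 10 core (31.2%) and 4 paralogue promoters (25.0%), against 35.6%. The median GC content was 33.5% in core and 32.7% in paralogue promoters, against 38.0% in all promoters, and its part in the motif shares was not tested. A match is a match of letters and no evidence of binding.

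**Figure D4:**
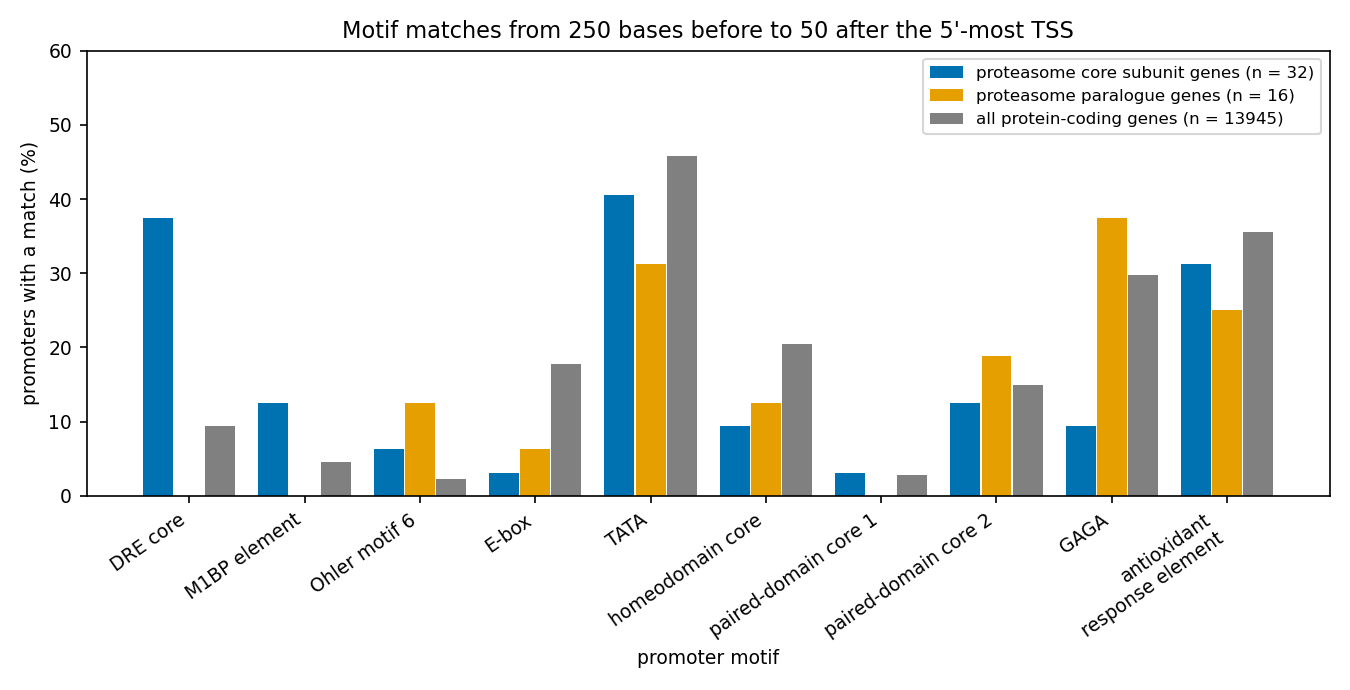
Bars give the share of promoters (%) with at least 1 match to each of 10 motifs, for the 32 core genes, the 16 paralogues and all 13945 protein-coding genes. The DRE core stands at 37.5% for core genes, 0 for paralogues and 9.36% for all genes, and the E-box at 3.12%, 6.25% and 17.7%.

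By assignment and by promoter summit, genes that work with the proteasome had summits more often than its subunits. The list of 22 such genes was chosen with earlier results of these data known. Of these genes 21 were matched, and 9 of the 21 (42.9%) had an assigned IDR summit, against 22.1% of all protein-coding genes. All 21 had a promoter summit in at least 1 replicate (54.7% of all genes did), and 13 (61.9%) had one in all 3 (29.7% of all genes). Ubi-p5E, a polyubiquitin gene, had the strongest, at pooled rank 627 (signal 597.7) and at ranks 549, 885 and 547 in replicates 1, 2 and 3. Pomp, the maturation chaperone of the core particle, had pooled rank 1160 (signal 428.3) and ranks 1502, 1028 and 1042. Both stood above every one of the 48 subunit genes in the pooled list.

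Of the regulators of proteasome gene expression on the list, cnc and Keap1 were among the 9, while maf-S, the gene of the partner of cnc, rngo and Pngl had no assigned IDR summit. cnc, the fly Nrf factor, had 2 assigned IDR summits, the stronger at rank 2496, and ranks 4410, 2082 and 1945 in replicates 1, 2 and 3. Keap1, which binds and restrains it, had rank 2486 in the IDR list and ranks 2573, 3665 and 2361. The others were the fusion gene RpS27A (rank 1880), the proteasome activator REG (rank 1910), the unfoldase TER94 (rank 2500), the polyubiquitin gene Ubi-p63E (rank 2858) and the ubiquitin-activating enzyme Uba1 (rank 5680). For REG, TER94 and Uba1 the nearest IDR summit was 1876, 630 and 4513 bp from the TSS, beyond 500 bp. The stretch of genome nearest to the TSS had a median of 3.95 kb for these 21 genes, against 1.69 kb for the core subunit genes, and was 40.4 kb for cnc. By promoter summit in the IDR list, the shares were 28.6% for the 21 genes and 21.9% for the core subunit genes, against 17.7% of all genes. With an IDR summit in the gene body or within 2 kb, the counts were 8 of the 21 genes and 13 of the 32 core subunit genes. By that rule the 21 genes did not have the higher share, and the share over all genes was not computed. Sem1, the small lid subunit that the symbol rule does not take in, had a promoter summit in replicate 3 alone, at rank 14534.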

How the data were processed

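Chromatin immunoprecipitation peaks of gsb-n with green fluorescent protein were deposited as 5 lists on dm6, 1 for each of 3 replicates, 1 pooled and 1 IDR list. The signal column holds the authors' peak height, in deposited units that differ between lists. The deposited −log10 q column was not used beyond description, and the p column holds no values. The summit offset was deposited as a score per peak. Per the labels, sonication gave fragments of 200 to 800 bp. The sources used here do not give the aligner, the caller or the cut of the IDR list. Peaks were ranked by signal. TSSs came from Ensembl release 115 protein-coding transcripts, and sequence from RefSeq. Counting was checked on simulated data with single, widely spaced TSSs, so shared promoters, genes with several TSSs and ties were not covered. A summit matched another within 100 bp. Depth is unknown, so no interval is given. The members and lists were chosen with earlier results of these data known. Named genes are the members with an IDR summit assigned or within 500 bp, the others with a pooled promoter summit by rank (up to 10 were allowed), their neighbours, and members without summits; others are said to be chosen afterwards or are given to complete a subcomplex. One neighbouring gene is not reported here. Alternatives were other distances, list lengths, assignment by gene body, motif windows and leaving out a replicate. Python 3.11.15, numpy 2.4.6, pandas 2.3.3 and matplotlib 3.10.9 were used.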

Additional observations from a re-analysis of the deposited data

How the results depend on the processing

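Of the recomputed counts, means and median distances, 71 stayed close to the reported value and 16 did not. Close meant within 1.5 times the reported value. For the median distance to a pooled summit it meant within 1 SD, taken over the 3 replicate medians. All 28 recomputed median ranks of IDR peaks stayed within 1 SD of the ranks over replicates. For those that leave out a replicate this was fixed in advance, because the SD came from the same ranks. It therefore says nothing on how stable the ranks are. With a summit matched within 250 bp the median ranks did not change. With a summit in the gene body or within 2 kb, the IDR count was 14 members in place of 4, with 13 core genes and 1 paralogue, and the pooled count was 22 in place of 13. The share over all protein-coding genes by that rule was not computed, so these counts cannot be set against a background. The higher-signal part of the IDR list left 3 of the 7 members with a promoter summit. With the top 1000 and the top 10000 peaks of each replicate, the mean number of members with an assigned summit was 0.333 and 10.7, in place of 6.33. The median distance of the members to a pooled summit, 4204 bp, was 2000, 2388 and 1193 bp in the replicate lists. In a window of 500 bases before to 100 after the TSS, the E-box matched 5 members in place of 2 (4 with every TSS), TAATTA 16 in place of 5, GTTCC with C or G 18 in place of 7, GAGAG 20 in place of 9 and the antioxidant response element 26 in place of 14. A longer window gives more matches at any promoter, and the shares over all promoters in it were not computed. Leaving out each replicate in turn moved no count by 1.5 times. No paired analysis was possible because there is 1 group. The pooled and IDR lists could not be rebuilt without a replicate. Leaving one out kept the IDR peaks with a summit within 100 bp in both other replicates, and the pooled list was kept whole. Depth is unknown, and no control was analysed here, so absence from a list of fixed length is not absence of binding.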

Other observations

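Beyond the proteasome genes, replicate peaks without a pooled counterpart were counted over the genome. Of 10191 replicate 1 summits with a summit within 100 bp in both other replicates, 130 (1.28%) had no pooled summit within 250 bp. At promoters, with the summit at most 500 bp from a TSS, this was 82 of 2831 (2.90%). Among the top 1000 peaks of replicate 1 it was 9 of 959, and 8 of these 9 were promoter summits. CG2747 had the best-ranked of them, at replicate 1 rank 298, with the nearest pooled summit 25956 bp away, and the next was at brm, a chromatin remodelling ATPase gene, at rank 347 and 16817 bp. These genes were chosen after their values were seen.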
